A study of Mus musculus with 24 samples.

Results

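The genes described here are 38 genes of sterol and fatty acid synthesis, taken by gene symbol from the 55401 genes listed in each of 3 tables of expected read counts. The list was chosen by function, but with earlier results of these data known. It holds 7 genes of the mevalonate steps, 10 genes that lead from squalene synthesis to cholesterol, 5 regulators of the sterol regulatory element binding proteins (SREBPs), the sterol-handling genes Stard4 and Tmem97, 5 genes of fatty acid synthesis, 7 desaturases and elongases, and the acyl-CoA ligases Acsl1 and Acsl3. All 38 had 1 row per table and passed edgeR's filter on low counts in each table.

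The libraries were made from poly(A) RNA of pancreatic ductal adenocarcinoma (PDAC) cell lines of the mouse in culture. KPsh cells carry a hairpin against Trp53, the gene of p53, that is active on doxycycline, so that taking the drug away restores p53. Their 3 libraries on the drug (1 µg/ml) and 3 off it were taken after 10 days. KPnull cells make no p53 of their own. They carried a doxycycline-inducible construct that was empty (vector) or held p53WT, the mutant of the first transactivation domain (TAD1m), the mutant of the second (TAD2m) or the mutant of both (TAD12m), and they received 1 µg/ml doxycycline for the last 48 hours (n = 2 each). The Pcyt2 set started from KPsh cells in which a guide cuts Pcyt2, a gene for an enzyme of phosphatidylethanolamine synthesis. These sgPcyt2 cells were used alone or with a Pcyt2 cDNA that the guide cannot cut, and each was kept for 6 days on or off doxycycline (n = 2 for each of the 4 groups). In every withdrawal the drug and p53 change together, so their effects cannot be told apart. The cDNA is added to edited cells and no unedited cells stand in this set. The labels do not say that replicates were separate cultures, so p-values measure the spread between libraries, which may be technical.

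Cells make cholesterol from acetyl-CoA through mevalonate, isoprenoids, squalene and lanosterol, and they make fatty acids from the same acetyl-CoA through malonyl-CoA. SREBPs are membrane-bound transcription factors of the endoplasmic reticulum that Scap carries to the Golgi for release when sterols are low, and Insig1 and Insig2 hold Scap back when sterols are high. The SREBP encoded by Srebf2 is best known for the sterol enzymes and that of Srebf1 for the fatty acid enzymes. Genes of these pathways are known SREBP targets in many tissues, Insig1 among them, and PDAC cells can both make and take up lipids.

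Promoters are shown for 7 genes that the results below turn on: both Insig genes, which moved in opposite directions, 4 sterol genes and the fatty acid synthase gene Fasn. Each stretch holds the 150 bases before the most upstream annotated exon or start site of the gene, 5′ to 3′ on the gene's own strand, from RefSeq promoters of build GRCm38.p6. Capitals mark matches, on either strand, to 4 motifs: the sterol regulatory element TCACNCCAC, the E-box CACGTG, the NF-Y box CCAAT and the GC box GGGCGG. In Fasn a forward and a reverse NF-Y match overlap. The Insig1 stretch is chr5:28071213-28071362 (plus strand), that of Insig2 chr1:121328025-121328174 (minus), of Hmgcs1 chr13:119690201-119690350 (plus), of Lss chr10:76531438-76531587 (plus), of Mvd chr8:122443423-122443572 (minus), of Tmem97 chr11:78550778-78550927 (minus) and of Fasn chr11:120824548-120824697 (minus).
Insig1: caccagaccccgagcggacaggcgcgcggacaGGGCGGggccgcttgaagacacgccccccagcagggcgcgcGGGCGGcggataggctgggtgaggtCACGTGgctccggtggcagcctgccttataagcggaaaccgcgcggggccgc
Insig2: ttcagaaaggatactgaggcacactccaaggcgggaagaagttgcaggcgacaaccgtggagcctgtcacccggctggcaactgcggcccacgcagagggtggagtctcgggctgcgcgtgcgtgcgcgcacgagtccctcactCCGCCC
Hmgcs1: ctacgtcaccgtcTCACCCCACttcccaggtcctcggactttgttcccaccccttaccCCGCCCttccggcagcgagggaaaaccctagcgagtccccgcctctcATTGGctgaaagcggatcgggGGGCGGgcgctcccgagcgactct
Lss: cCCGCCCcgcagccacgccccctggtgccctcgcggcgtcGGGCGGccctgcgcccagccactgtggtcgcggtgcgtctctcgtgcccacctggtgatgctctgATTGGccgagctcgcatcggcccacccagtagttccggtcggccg
Mvd: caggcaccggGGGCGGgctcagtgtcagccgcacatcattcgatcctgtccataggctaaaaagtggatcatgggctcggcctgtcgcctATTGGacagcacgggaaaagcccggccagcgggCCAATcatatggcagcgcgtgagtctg
Tmem97: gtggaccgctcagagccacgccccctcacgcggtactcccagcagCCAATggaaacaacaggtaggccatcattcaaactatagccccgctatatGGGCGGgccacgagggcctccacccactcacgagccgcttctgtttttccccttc
Fasn: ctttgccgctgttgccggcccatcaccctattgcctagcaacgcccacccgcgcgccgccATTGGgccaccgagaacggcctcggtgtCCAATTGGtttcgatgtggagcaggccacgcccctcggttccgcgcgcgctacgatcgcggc
Promoters were found for 31 of the 38 genes, in a table of 32851 promoters that each run from 250 bases before to 50 after a start site. None was found for Fads1, Fdft1, Fdps, Scd1, Scd2, Sqle and Stard4. The promoter used for Acss2 lies 54819 bases from the start of its counted transcript. The sterol regulatory element stood in 1 of the 31 (3.23%), that of Hmgcs1, against 1.24% of all promoters. An E-box stood in 5 (16.1% against 7.15%), an NF-Y box in 21 (67.7% against 37.4%) and a GC box in 26 (83.9% against 35.7%). Insig1 is 1 of the 5 with an E-box, and Insig2 has a GC box and no NF-Y box in this window. The 32851 promoters were not limited to genes that passed the count filter, as the 38 did, so these shares compare unlike sets. A match of these letters is a description of the window and does not show binding.

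Across the 24 libraries, between 9393966 and 19431250 counts fell on genes. Trp53 matched the labels: it read 21.7, 21.1 and 20.3 CPM (the count scaled by edgeR's trimmed-mean library size) on doxycycline and 259, 251 and 263 CPM off it in KPsh cells. In KPnull cells it read 6.12 and 4.53 CPM with vector and at least 523.9 CPM with every p53 form. In the Pcyt2 set it was at most 22.7 CPM on the drug. Off it, Trp53 read 42.1 and 41.6 CPM in sgPcyt2 cells and 97.1 and 86.7 CPM with the cDNA. The 8 ductal epithelial markers summed to at least 5000 CPM in every library. Of the 8, 1 stayed below 1 CPM in all KPsh libraries, and 2 did in the KPnull and in the Pcyt2 set. The highest single marker reached 4259 CPM (Krt8) in the KPsh set, 2999.6 CPM (Krt18) in KPnull cells and 4894 CPM (Krt8) in the Pcyt2 set. The sum of the 8 moved with the groups. It was 6783 to 7078 CPM on and 12296 to 12976 CPM off doxycycline in KPsh cells, 5470.5 to 5888 with vector, 7845 to 8368 with p53WT, 5134 to 5230.3 with TAD1m, 7868 to 8199 with TAD2m and 5000.3 to 5689 with TAD12m. The sum was 6339.9 to 7497 CPM on and 10223 to 11419 CPM off in the Pcyt2 set. Its part in the results below was not tested. Markers of other cell types were low: the 8 immune markers summed to at most 31.2 CPM, the 6 adipocyte markers to 19.2, the 8 fibroblast markers to 9.44, the 5 endothelial markers to 8.26, the 8 acinar and endocrine markers to 4.79 and the 6 hepatocyte markers to 2.40.

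Levels are compared between genes only per kilobase of the counted transcript. In KPsh cells on doxycycline the desaturase Scd2 was the highest of the 38, at 435 CPM per kilobase (mean of 3 libraries). Farnesyl diphosphate synthase Fdps followed at 191, the sterol methyl oxidase Msmo1 at 153 and the citrate lyase Acly at 116. Most bases of Fdps (76.4%) lie in exons of the readthrough gene Gm43738, and 82.0% of its stretches of 50 bases occur in another gene, so its reads and those of Gm43738 cannot be told apart. Squalene epoxidase Sqle (107) and Fasn (107) were next to each other and closer than their spread. Srebf2 stood at 87.7 CPM per kilobase and Srebf1 at 39.8. The lowest were Insig2 at 9.76 and Acsl1 at 5.37.

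After 10 days off doxycycline in KPsh cells, most of the 38 genes were lower. Calls rest on edgeR's quasi-likelihood test with Benjamini-Hochberg adjustment over all genes tested and a threshold of 0.05 for the adjusted p, and all changes below are log2 changes with the standard error of that fit. By this rule 30 of the 38 fell, 4 rose and 4 were not called. That is 89.5% of the members called, against 64.8% of the 13990 genes tested, of which 31.7% fell and 33.1% rose. The median change of the 38 was -0.40, against 0.01 over all genes tested. The libraries of the 2 groups did not overlap for any of the 34 called genes. Overlap was not counted over all genes tested, here or in any comparison below. Statements that libraries did not overlap or stood apart describe the values and add nothing to the calls. In bulk RNA, fewer cells that make a transcript and less of it per cell cannot be told apart.

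The middle of the sterol pathway held the largest change. Lanosterol synthase Lss, which closes the sterol rings, read 195, 209.6 and 204 CPM on doxycycline and 85.8, 88.4 and 87.6 CPM off it. The 3 libraries off the drug were all under the lowest library on it, and Lss fell by 1.22 ± 0.06 on the log2 scale (adjusted p = 3.13e-14). Sqle, the oxygen-dependent step just before it, read 297, 296 and 287 CPM on and 157, 156 and 149 CPM off, a change of -0.93 ± 0.05, adjusted p = 1.21e-12. The groups stood well apart for this gene too. Of the 10 genes from squalene synthesis to cholesterol, 9 fell, from -0.29 for squalene synthase Fdft1 to the value of Lss. Cyp51, the lanosterol demethylase, changed by -0.67, and Dhcr7, which makes cholesterol from its last precursor, by -0.69. Msmo1 (-0.57), Nsdhl (-0.40), Hsd17b7 (-0.44) and Sc5d (-0.30), which trim and rearrange the sterol ring system, fell by less. Ebp, the sterol isomerase, was the exception and rose by 0.24 ± 0.06 on the log2 scale (adjusted p = 0.000859). Exons of Fdft1 overlap those of Ctsb on the opposite strand over 20.9% of their bases, and reads were counted without strand. Ctsb rose by 0.82, and its part in the value of Fdft1 was not tested.

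Upstream, 6 of the 7 mevalonate genes fell. The isopentenyl isomerase Idi1 read 32.2, 39.7 and 37.8 CPM on and 20.6, 19.04 and 13.5 CPM off, a change of -1.05 ± 0.13, adjusted p = 1.78e-06. One library off the drug was lower than the others, and the groups did not overlap. Mvd, which makes isopentenyl diphosphate, changed by -0.86, the thiolase Acat2 by -0.51, the kinases Mvk by -0.37 and Pmvk by -0.44, and Fdps by -0.38. Hmgcs1, the synthase at the entry of the pathway, was not called: it read 204, 194 and 227 CPM on and 224, 218 and 193 CPM off. The libraries overlapped, and the 95% interval of its change was -0.12 to 0.16. Hmgcs1 was thus the only mevalonate gene of the 7 without a call in these cells. A transcript of Gm48342 on the other strand covers 16.1% of the bases of Hmgcs1. Gm48342 fell by 0.23, and its part in the values of Hmgcs1 was not tested in any comparison. Acat2 shares 45.9% of its stretches of 50 bases with Acat3, so its reads are uncertain. The same limit holds for Acaca, where 55.4% of such stretches occur in other genes, most often in Gm5182. Smaller shares occur in other genes for Me1 (most often Gm7049), Idi1 (21.3%, most often Gm13502) and Tmem97 (20.8%, most often Gm5809). The part of this sharing in the values of these genes was not tested in any comparison.

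The regulators did not move as 1 group. Srebf2 fell by 0.32 ± 0.05 on the log2 scale (adjusted p = 2.92e-05) and Srebf1 rose by 0.23 ± 0.06 on the log2 scale (adjusted p = 0.00125). Srebf2 read 425, 465 and 436 CPM on and 352, 342 and 369 off, and Srebf1 159, 179.6 and 170.1 CPM on and 201, 192 and 204 off. Neither pair of groups overlapped. Scap read 90.96, 93.4 and 92.9 CPM on and 90.4, 88.5 and 104 off, with overlap and no call (95% interval -0.11 to 0.17). Insig1 read 157, 160.0 and 151 CPM on and 119, 122 and 115 CPM off and fell by 0.39 ± 0.06 on the log2 scale (adjusted p = 2.1e-06). Insig2 read 24.3, 25.5 and 28.9 CPM on and 42.4, 42.6 and 37.97 CPM off and rose by 0.64 ± 0.09 on the log2 scale (adjusted p = 1.35e-06). The Insig genes, whose proteins both retain Scap, thus moved in opposite directions, each without overlap. Tmem97, a sterol-binding membrane protein, read 107, 111 and 105 CPM on and 56.5, 48.9 and 54.6 CPM off, without overlap (-1.01 ± 0.07, adjusted p = 1.33e-11). Stard4, a soluble cholesterol carrier, changed by -0.85.

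Of the fatty acid genes, Acly, which supplies cytosolic acetyl-CoA, changed by -0.31, the carboxylase Acaca by -0.80 and Fasn by -0.43. Malic enzyme Me1 was not called (0.05, 95% interval -0.06 to 0.16). Acss2, which makes acetyl-CoA from acetate, was the largest rise after Insig2 (0.58 ± 0.12, adjusted p = 0.000248). Its counted transcript is only 641 bases long, and 61.2% of its exon bases lie in exons of Gss on the other strand, which rose by 0.50. The desaturase Scd1 read 345, 341 and 352 CPM on and 149, 163 and 149.95 CPM off, a change of -1.17 ± 0.05, adjusted p = 4.1e-14. The highest library off the drug was far under the lowest library on it. Elovl6, the elongase of saturated chains, read 174, 175 and 176 CPM on and 92.01, 101 and 92.9 CPM off and changed by -0.88 ± 0.06, adjusted p = 1.26e-11. Scd2 changed by -0.38, the polyunsaturated fatty acid desaturases Fads1 by -0.70 and Fads2 by -0.40, and Elovl5 by -0.35, while Elovl1 was not called (0.02). Acsl1 fell by 0.79 and Acsl3 by 0.26. Beside these changes Mki67, a proliferation marker, fell by 1.27, and its part in them was not tested.

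**Figure D1:**
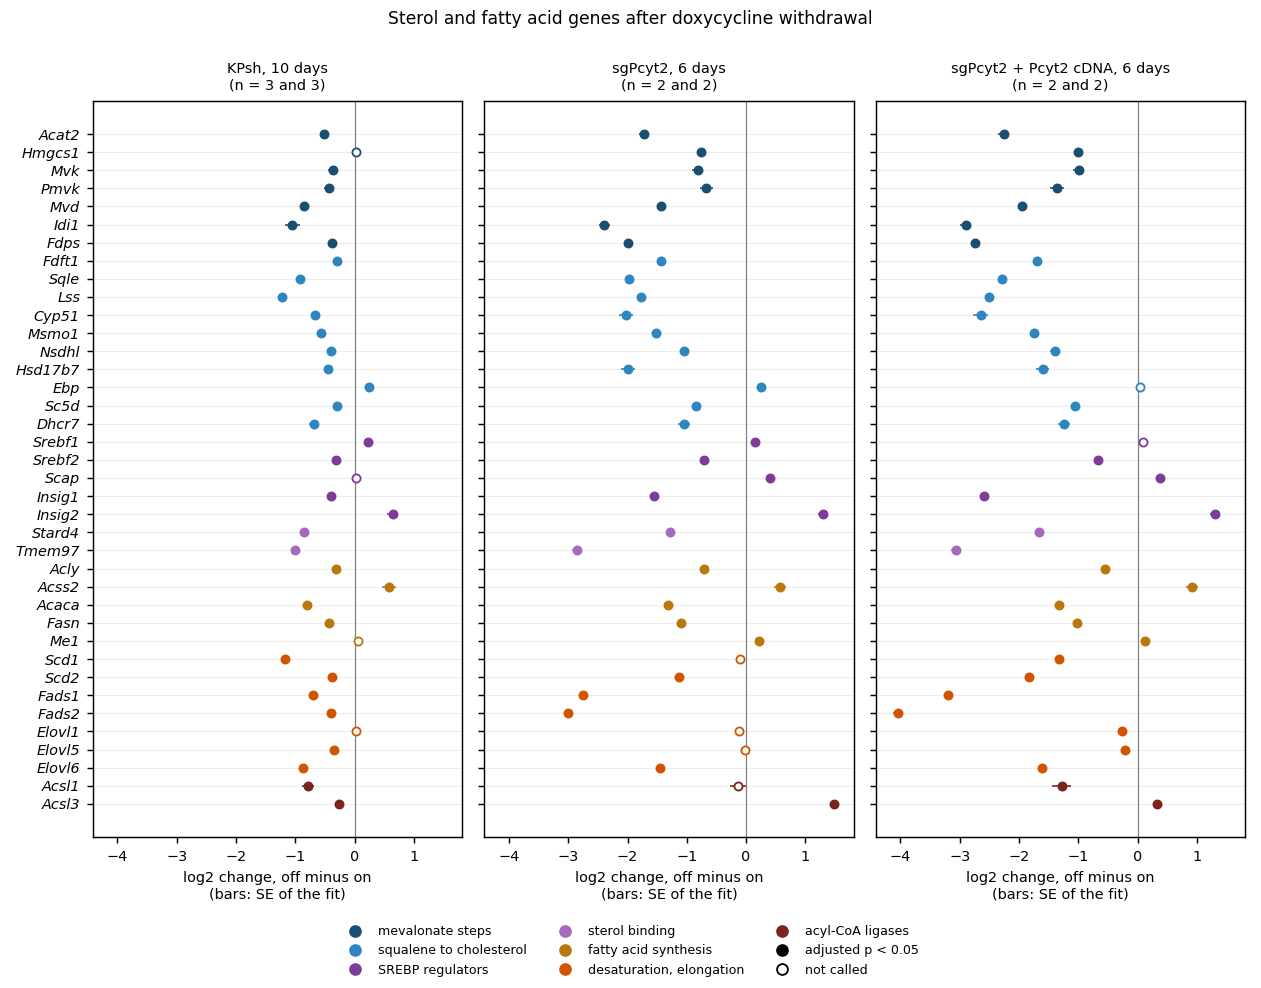
Log2 change on doxycycline withdrawal (off minus on, horizontal axis) of the 38 genes in KPsh cells, sgPcyt2 cells and sgPcyt2 cells with the Pcyt2 cDNA. Points are estimates of edgeR's fit with bars of 1 SE, filled where the adjusted p is under 0.05, and colours give the role. Most points lie left of 0. Insig2, Acss2, Srebf1, Scap, Me1 and Ebp lie right of it in each panel, and of these only Insig2 and Acss2 are filled in each. The panels of the Pcyt2 set, grown for 6 days and fitted separately, reach -4.05 (Fads2).

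Wild-type p53 in KPnull cells was also accompanied by lower levels of most of these genes. With p53WT against vector, 24 of the 38 fell and 3 rose, and 71.1% were called against 50.6% of the 15075 genes tested (25.1% lower and 25.5% higher). The median change was -0.26, against -0.01 over all genes tested. Elovl6 read 321 and 295 CPM with vector against 165 and 181 CPM with p53WT and changed by -0.83 ± 0.07, adjusted p = 3.78e-08. Tmem97 read 83.1 and 87.98 CPM with vector against 50.03 and 49.1 CPM with p53WT and changed by -0.79 ± 0.06, adjusted p = 3.54e-08. Both genes stood clearly apart between the groups. Acsl3 read 129 and 119 CPM with vector and 82.4 and 80.5 CPM with p53WT (-0.61 ± 0.07, adjusted p = 1.5e-06). Stard4 read 349 and 325 CPM with vector against 212 and 233 CPM with p53WT (-0.60 ± 0.06, adjusted p = 7.09e-07), and Dhcr7 54.1 and 53.7 CPM with vector against 34.7 and 37.3 CPM with p53WT (-0.58 ± 0.08, adjusted p = 1.26e-05). Acat2 read 100.5 and 94.6 CPM with vector against 68.7 and 66.6 CPM with p53WT (-0.53 ± 0.06, adjusted p = 3.27e-06). None of these 4 overlapped between vector and p53WT, which again adds nothing to the calls. In this comparison 6 of the 7 mevalonate genes fell, from Mvd (-0.22, a call lost in 4 of 13 alternatives) to Acat2, and Mvk was not called (-0.10). From squalene to cholesterol 6 of 10 fell, among them Lss (-0.47), Cyp51 (-0.41) and Sqle (-0.39), while Fdft1 (0.04), Nsdhl (0.02), Hsd17b7 (0.11) and Ebp (-0.14) were not called.

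Among the regulators, Insig2 rose with p53WT, from 33.9 and 30.7 to 43.1 and 42.5 CPM (0.40 ± 0.08, adjusted p = 0.000421). Insig1 was at 242 and 238 CPM with vector and 229 and 214 CPM with p53WT and missed the threshold (-0.12 ± 0.05, adjusted p = 0.0854). Scap rose from 58.2 and 71.6 to 79.5 and 79.6 CPM (0.30 ± 0.09, adjusted p = 0.0134), but the call was lost without vector replicate 1 or either p53WT replicate (adjusted p = 0.194, 0.0649 and 0.0612). Scap shares 18.6% of its exon bases with 5830462I19Rik on the other strand. That gene was not called here (0.19) and fell by 0.28 in KPsh withdrawal. Its part in the values of Scap was not tested in any comparison. Srebf2 was at 415 and 516 CPM with vector and 487 and 469 CPM with p53WT (0.04), and Srebf1 at 132 and 168 CPM with vector against 169 and 152 CPM with p53WT (0.10). The vector and p53WT libraries overlapped for both. In the fatty acid genes, Acaca (-0.44), Fads1 (-0.44), Elovl5 (-0.30), Fads2 (-0.25) and Scd2 (-0.16) fell. Of the 27 calls with p53WT, 19 held in every alternative: those of Scd2, Mvd and Msmo1 were lost in at least 1 (adjusted p up to 0.122, 0.202 and 0.0931), and so was that of Scap. The falls of Acly (-0.14), Acsl1 (-0.26) and Acss2 (-0.26) and the rise of Elovl1 (0.15) were lost under DESeq2. Scd1 read 614 and 617 CPM with vector and 583 and 632 CPM with p53WT. The groups overlapped and the interval of its change was -0.13 to 0.09, whereas in KPsh cells it fell by 1.17. Fasn was not called (-0.14), nor was Me1 (0.01). The KPsh and KPnull tables were scaled and fitted separately, and the difference between them was not tested. Counted across both, 22 genes fell in KPsh withdrawal and with p53WT, which is 73.3% of the 30 and 91.7% of the 24, and Insig2 rose in both. That is 57.9% of the 38 lower in both, against 20% of the 13502 genes tested in both tables. Mki67 fell by 1.30 with p53WT, and mitochondrial genes took 3.01 to 3.04% of counts against 2.24 to 2.36% with vector. The part of either in these changes was not tested.

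The 3 mutant forms were each compared with the same vector libraries, so these comparisons share their controls. TAD1m had 27 genes lower and 2 higher, with 76.3% of the 38 called against 36.4% of all genes tested (17.5% lower and 19% higher), and a median change of -0.35 against -0.01. The changes were led by sterol enzymes. Cyp51 read 479.6 and 447 CPM with vector and 267 and 268 CPM with TAD1m and changed by -0.79 ± 0.06, adjusted p = 1.56e-08. Sqle read 385 and 379 CPM with vector against 228 and 232 CPM with TAD1m (-0.74 ± 0.05, adjusted p = 8.4e-09), and Hmgcs1 469 and 464 CPM with vector against 290.4 and 276 CPM with TAD1m (-0.72 ± 0.06, adjusted p = 4.69e-08). All 3 were lower in both TAD1m libraries than in either vector library. Gm48342, which overlaps Hmgcs1, fell by 0.72 as well. Lss read 250.4 and 256 CPM with vector against 154 and 159.8 CPM with TAD1m (-0.69 ± 0.05, adjusted p = 4.44e-08). Fdps read 493 and 461 CPM with vector against 298 and 295 CPM with TAD1m (-0.69 ± 0.05, adjusted p = 3.8e-08). Mvd read 105 and 114 CPM with vector against 67.3 and 70.1 CPM with TAD1m (-0.67 ± 0.08, adjusted p = 1.48e-05). These 3 genes also belong to the mevalonate and sterol steps, and their groups did not overlap either. From squalene to cholesterol all 10 genes fell, Ebp the least (-0.25, a call lost in 2 of 13 alternatives), and of the mevalonate genes only Mvk was not called (-0.10). Insig1 fell by 0.40 ± 0.05 on the log2 scale (adjusted p = 2.62e-05), reading 186 and 179 CPM. Scap rose by 0.61 ± 0.09 on the log2 scale (adjusted p = 9.55e-05), reading 96.2 and 101 CPM. The overlapping gene 5830462I19Rik rose by 0.54. Insig2, at 38.5 and 35.98 CPM, missed the threshold (0.20 ± 0.08, adjusted p = 0.0551), and neither SREBP gene was called. Srebf1 read 189 and 207 CPM, above both vector libraries (0.40 ± 0.17, adjusted p = 0.126), and Srebf2 475 and 508 CPM (0.08). Scd1 (-0.45), Acly (-0.41), Me1 (-0.31) and Elovl6 (-0.50) fell, while Scd2 (-0.04), Fads2 (-0.04) and Acsl3 (-0.15) were not called. Mki67 changed by -0.17 with TAD1m.

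TAD2m had 22 genes lower and 2 higher, with 63.2% of the 38 called against 49.1% of all genes tested (24.2% lower and 24.9% higher), and a median change of -0.22 against -0.01. Tmem97 read 49.2 and 50.3 CPM, a change of -0.78 ± 0.06, adjusted p = 4.39e-08, from the vector values given above. Elovl6 read 181 and 181 CPM (-0.77 ± 0.07, adjusted p = 1.06e-07) and Stard4 219.6 and 232 CPM (-0.58 ± 0.06, adjusted p = 1.08e-06). Pmvk read 78.6 and 77.1 CPM with vector and 53.1 and 56.2 CPM with TAD2m (-0.51 ± 0.07, adjusted p = 1.75e-05). All 4 were lower than in either vector library. Fads1 read 178 and 169 CPM with vector against 121 and 123 CPM with TAD2m (-0.51 ± 0.06, adjusted p = 1.57e-06), and Idi1 37.6 and 35.8 CPM with vector against 26.4 and 25.4 CPM with TAD2m (-0.51 ± 0.09, adjusted p = 0.000121). Insig2 rose here too, to 41.5 and 45.02 CPM (0.42 ± 0.08, adjusted p = 0.000344). Insig1 (-0.12), Scap (0.21), Srebf1 (-0.09) and Srebf2 (-0.03) were not called. Mki67 changed by -1.17, and the mitochondrial share was 3.03 to 3.09%.

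TAD12m left few calls: 4 genes lower and 0 higher, 10.5% of the 38 against 3.85% of all genes tested (1.85% lower and 2% higher), with a median of -0.09 against 0.00. The 4 were Lss (197 and 204 CPM, -0.33 ± 0.05, adjusted p = 0.00123), Acsl1 (18.2 and 18.3 CPM, -0.33 ± 0.09, adjusted p = 0.0483), Cyp51 (405 and 381 CPM, -0.24 ± 0.06, adjusted p = 0.0231) and Sqle (333 and 336 CPM, -0.19 ± 0.05, adjusted p = 0.0375). Each read lower in both TAD12m libraries than in either vector library. None of these calls held when only the 2 groups compared were fitted, where 0 genes passed, and leaving out 1 library left 1 or 2 calls. A replicate block with crossed numbers for some other groups, chosen after seeing the data, gave 10. Of the 38 genes 10 had an unadjusted p under 0.05, and DESeq2 called 3.

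**Figure D2:**
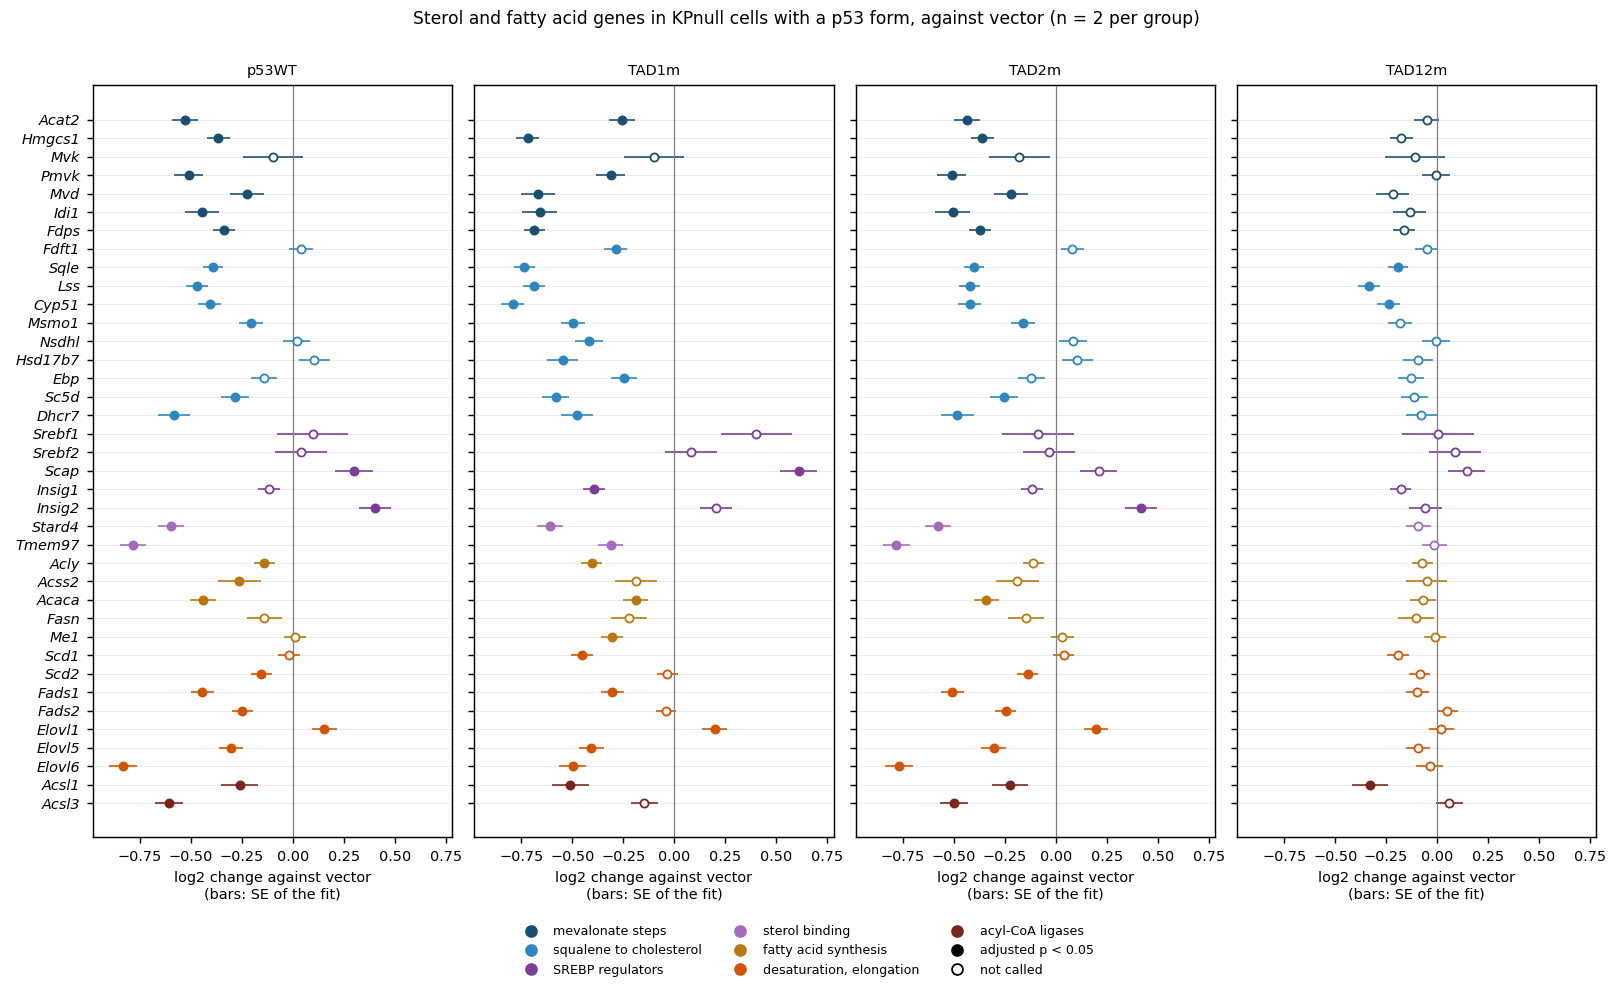
Log2 change against vector (horizontal axis) of the 38 genes in KPnull cells with p53WT, TAD1m, TAD2m or TAD12m, with bars of 1 SE of edgeR's fit and filled points for an adjusted p under 0.05. The 4 panels share the 2 vector libraries. Points of TAD12m lie near 0, the sterol enzymes reach furthest left with TAD1m, and Tmem97 and Elovl6 with p53WT and TAD2m.

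Compared with p53WT directly, TAD1m differed in both directions. It had 16 genes lower and 8 higher than p53WT, 63.2% of the 38 called against 39.1% of all genes tested (18.7% lower and 20.4% higher), with a median of -0.10 against 0.02. The lower genes were mainly of the sterol pathway, where 8 of the 10 genes from squalene to cholesterol were lower and none was higher. Hsd17b7, a sterol ketone reductase, read 85.8 and 95.2 CPM with p53WT and 57.1 and 58.1 CPM with TAD1m (-0.65 ± 0.08, adjusted p = 4.27e-06). Nsdhl, which works just before it in removing the ring's methyl groups, read 107 and 108 CPM with p53WT against 81.4 and 77.5 CPM with TAD1m (-0.44 ± 0.07, adjusted p = 8.65e-05). Mvd read 94 and 93.1 CPM with p53WT against 67.3 and 70.1 CPM with TAD1m (-0.45 ± 0.09, adjusted p = 0.000612). Scd1 was lower as well, at 583 and 632 CPM with p53WT against 444 and 457 CPM with TAD1m (-0.43 ± 0.05, adjusted p = 7.79e-06). Both TAD1m libraries were under both p53WT libraries for these 4 genes. A pair of genes with large falls under p53WT were higher with TAD1m, again without overlap, in comparisons that share the p53WT libraries. Tmem97 read 50.03 and 49.1 CPM with p53WT and 67.1 and 70.6 CPM with TAD1m (0.47 ± 0.07, adjusted p = 2.26e-05), and Acsl3 82.4 and 80.5 CPM with p53WT against 111 and 113 CPM with TAD1m (0.46 ± 0.07, adjusted p = 5.17e-05). Elovl6 (0.33), Scap (0.31), Acat2 (0.27), Acaca (0.25), Fads2 (0.21) and Pmvk (0.20) were also higher, but of these 6 only the call of Elovl6 held in every alternative tried. The gene that overlaps Scap, 5830462I19Rik, was higher by 0.36. Insig1 was lower (-0.28 ± 0.05, adjusted p = 0.000604), and Insig2 (-0.20 ± 0.08, adjusted p = 0.0538), Srebf1 (0.31) and Srebf2 (0.04) were not called. Mki67 was higher with TAD1m by 1.12, and mitochondrial genes took 2.49 to 2.51% of counts with TAD1m against 3.01 to 3.04% with p53WT. The part of either in these differences was not tested.

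TAD2m and p53WT could not be separated on these genes. None of the 38 was called by edgeR, none had an unadjusted p under 0.05 and DESeq2 called 0, while 0.285% of all genes tested were called (0.0862% lower and 0.199% higher). The median difference was 0.02, against 0.01 over all genes tested. The largest difference was -0.18 for Srebf1, with an interval of -0.61 to 0.25. The interval stayed within 0.25 on either side of 0 for 31 of the 38. For Tmem97 it was -0.14 to 0.15 and for Lss -0.07 to 0.16. Trp53 itself was lower with TAD2m (-0.34 ± 0.06, adjusted p = 0.0242).

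TAD1m against TAD12m gave 25 genes lower and 3 higher, 73.7% of the 38 against 31% of all genes tested (14.2% lower and 16.8% higher), with a median of -0.28 against 0.00. Cyp51 read 405 and 381 CPM with TAD12m against 267 and 268 CPM with TAD1m (-0.56 ± 0.06, adjusted p = 1.47e-06). Hmgcs1 read 420.4 and 405 CPM with TAD12m (-0.54 ± 0.06, adjusted p = 1.74e-06), and Sqle differed by -0.54 ± 0.05, adjusted p = 4.67e-07. The TAD1m libraries, with the values given above, were lower for all 3. Gm48342, which overlaps Hmgcs1, differed by -0.58. Idi1 read 34.8 and 32.1 CPM with TAD12m and 23.2 and 23.4 CPM with TAD1m (-0.52 ± 0.09, adjusted p = 0.00019), and Fdps 419 and 434 CPM with TAD12m (-0.52 ± 0.05, adjusted p = 1.27e-06). Stard4 read 328 and 303 CPM with TAD12m against 221 and 219.8 CPM with TAD1m (-0.52 ± 0.06, adjusted p = 1e-05). None of these overlapped between the mutants. Scap (0.47), Insig2 (0.26) and Elovl1 (0.18) were higher, the last 2 without a call under DESeq2. The gene that overlaps Scap, 5830462I19Rik, was higher by 0.50.

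**Figure D3:**
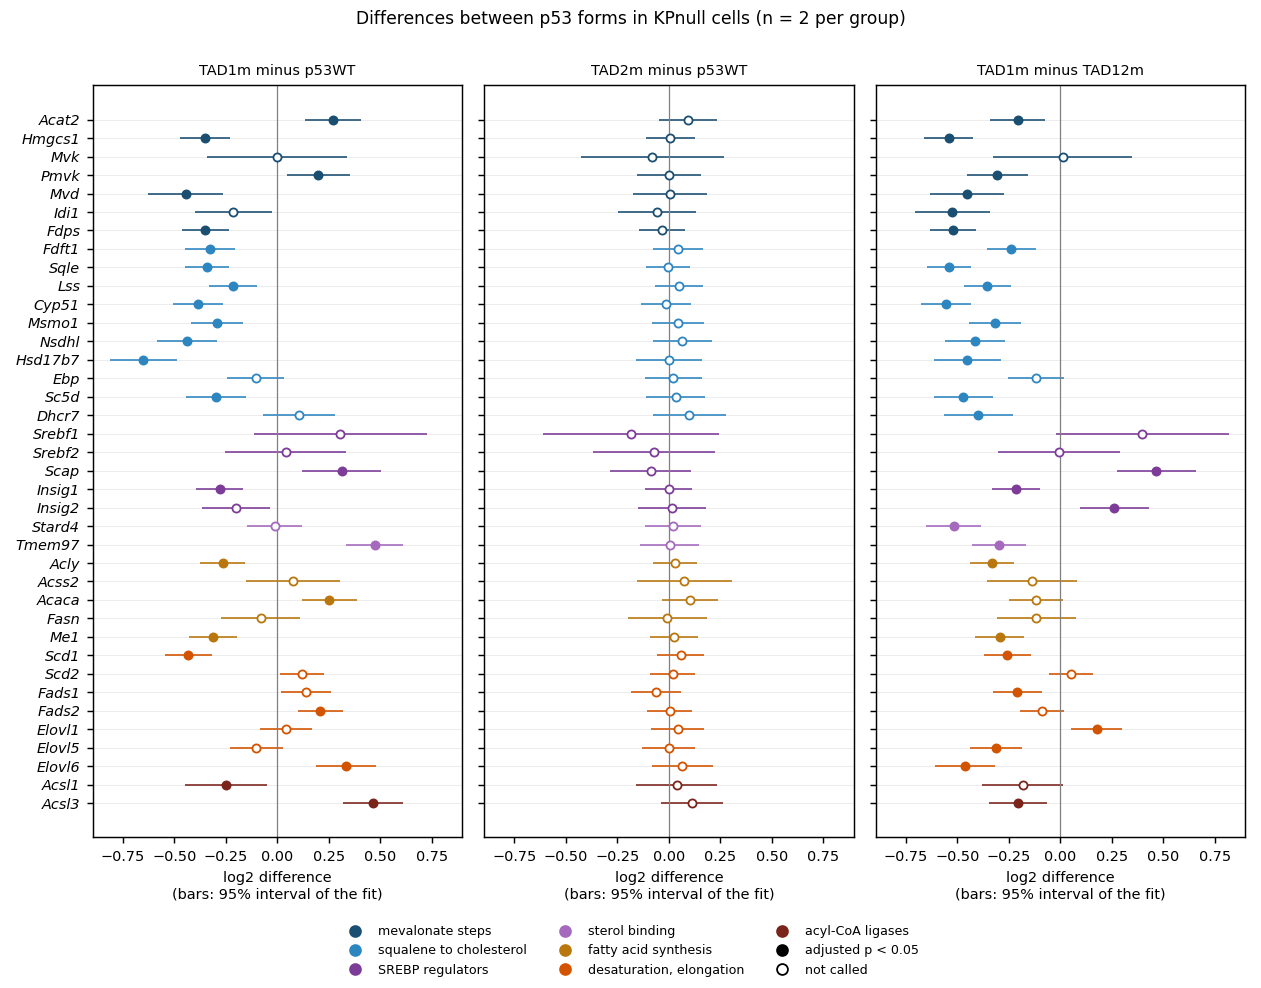
Log2 differences (horizontal axis) of the 38 genes between p53 forms in KPnull cells, with bars for the 95% interval of edgeR's fit and filled points for an adjusted p under 0.05. In the middle panel, TAD2m minus p53WT, no point is filled and each interval crosses 0, while TAD1m minus p53WT has filled points on both sides, from -0.65 (Hsd17b7) to 0.47 (Tmem97).

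In the Pcyt2 set, doxycycline withdrawal for 6 days was followed by falls of up to 4.05 on the log2 scale. In sgPcyt2 cells 27 of the 38 fell and 7 rose, 89.5% called against 76.3% of the 14916 genes tested (37.1% lower and 39.2% higher), with a median of -1.08 against 0.02. With the cDNA 31 fell and 5 rose, 94.7% against 73.5% (36.3% lower and 37.3% higher), with a median of -1.34 against 0.02. Fads2, which starts polyunsaturated fatty acid desaturation, read 116 and 127 CPM on and 14.9 and 15.4 CPM off in sgPcyt2 cells (-3.00 ± 0.08, adjusted p = 2.81e-33). With the cDNA it read 139.9 and 126 CPM on and 8.82 and 7.21 CPM off (-4.05 ± 0.08, adjusted p = 1.8e-36). Fads2 thus had the largest fall of the 38 in both lines. Fads1, the next desaturase of that route, changed by -2.74 ± 0.07 in sgPcyt2 cells and -3.19 ± 0.07 with the cDNA. It read 103 and 107 CPM on and 15.9 and 15.5 CPM off in sgPcyt2 cells, and 118 and 114 CPM on and 12.1 and 13.2 CPM off with the cDNA. Tmem97 read 76.99 and 74 CPM on and 10.6 and 10.2 CPM off in sgPcyt2 cells (-2.86 ± 0.08), and 95.7 and 94.8 CPM on and 11.1 and 11.6 CPM off with the cDNA (-3.07 ± 0.07). For these 3 genes the levels off the drug were a small fraction of those on it in every library.

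The mevalonate genes all fell in both lines, from -0.67 (Pmvk) to -2.39 (Idi1) in sgPcyt2 cells and from -0.99 (Mvk) to -2.90 (Idi1) with the cDNA. Idi1 read 49.7 and 54.04 CPM on and 9.65 and 10.1 CPM off in sgPcyt2 cells, and 67.7 and 64.4 CPM on and 9.14 and 8.52 CPM off with the cDNA. Fdps read 182 and 195 CPM on and 43.9 and 51.4 CPM off in sgPcyt2 cells, and 197 and 199 CPM on and 29.2 and 29.7 CPM off with the cDNA. Levels off the drug were lower in every library of both lines. Hmgcs1, which was not called in the KPsh set, fell by 0.77 and 1.01, and Gm48342, which overlaps it, by 0.90 and 1.11. From squalene to cholesterol 9 of 10 fell in each line, with Cyp51 at -2.02 and -2.65, Sqle at -1.97 and -2.29, and Lss at -1.78 and -2.50. Cyp51 read 202 and 227 CPM on and 46.3 and 59.3 off in sgPcyt2 cells, and 251 and 235 CPM on and 41.1 and 36.4 CPM off with the cDNA. Hsd17b7 fell by 1.99 in sgPcyt2 cells, from 28.9 and 32.7 to 7.12 and 8.4 CPM, and fell with the cDNA too. Ebp again went the other way in sgPcyt2 cells, where it rose by 0.25 ± 0.05 on the log2 scale (adjusted p = 1.89e-05), and was not called with the cDNA (0.04). The Insig genes again moved in opposite directions, with no overlap in either line. Insig1 read 79.5 and 87.2 CPM on and 29.5 and 27.3 off in sgPcyt2 cells (-1.55 ± 0.07, adjusted p = 4.03e-25), and 104 and 98.7 CPM on and 17.2 and 16.6 CPM off with the cDNA (-2.58 ± 0.07, adjusted p = 8.78e-33). Insig2 read 20.3 and 21.9 CPM on and 50.5 and 52.8 off in sgPcyt2 cells (1.29 ± 0.08, adjusted p = 5.97e-19), and 22.5 and 19.9 CPM on and 48.2 and 55.7 CPM off with the cDNA (1.30 ± 0.08, adjusted p = 3.63e-19). Srebf2 fell in both, from 364 and 368 to 217 and 231 CPM in sgPcyt2 cells (-0.71) and from 369 and 353 to 229 and 225 CPM with the cDNA (-0.67). Scap rose in both (0.40 and 0.37), and so did 5830462I19Rik, which overlaps it (0.33 and 0.29). Srebf1 rose in sgPcyt2 cells (0.15 ± 0.04, adjusted p = 0.00226) and missed the threshold with the cDNA (0.09 ± 0.04, adjusted p = 0.0641).

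In fatty acid synthesis, Acaca fell by 1.32 and 1.32, Fasn by 1.10 and 1.01 and Acly by 0.70 and 0.55 in sgPcyt2 cells and with the cDNA. Acss2 (0.57 and 0.91) and Me1 (0.22 and 0.12) rose, with the same overlap of Acss2 and Gss, which rose by 0.57 and 0.92. Over the 3 withdrawals, 26 genes fell in each, which is 86.7% of the 30 in KPsh cells, 96.3% of the 27 in sgPcyt2 cells and 83.9% of the 31 with the cDNA. That is 68.4% of the 38, against 20.9% of the 13470 genes tested in both tables. Acss2 and Insig2 rose in each. The sizes differ between the KPsh and the Pcyt2 sets in time off the drug, 10 and 6 days, and in the table they were fitted in, so no test compares them. Mki67 fell by 3.75 in sgPcyt2 cells and 3.23 with the cDNA, against 1.27 in the KPsh set. Mitochondrial genes took 3.31 to 3.50% of counts off the drug and 1.86 to 2.00% on it in the Pcyt2 set. The part of either in these falls was not tested.

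The 2 lines of the Pcyt2 set were then compared with each other, in the same libraries as the withdrawals. Pcyt2 read 28.6 and 28.4 CPM on and 21.3 and 17.7 CPM off in sgPcyt2 cells, and 2633 and 2585 CPM on and 2199 and 2191 CPM off with the cDNA. The KPsh cells read between 83.3 and 113.7 CPM in their own table, so the Pcyt2 level with the cDNA was not that of unedited cells. On doxycycline, 17 of the 38 were lower in sgPcyt2 cells than with the cDNA and 0 were higher, 44.7% called against 18.4% of all genes tested (10% lower and 8.4% higher), with a median of -0.14 against -0.02. Of these 17 calls, 11 held in every alternative. The fatty acid enzymes led: Fasn read 768 and 748 CPM in sgPcyt2 cells and 1115 and 1084 CPM with the cDNA (-0.54 ± 0.04, adjusted p = 1.91e-15). Scd2 read 1424 and 1509 CPM in sgPcyt2 cells against 2018 and 1905 CPM with the cDNA (-0.42 ± 0.04, adjusted p = 1.13e-11), and Acaca 99.8 and 106 CPM in sgPcyt2 cells against 140.4 and 133 CPM with the cDNA (-0.42 ± 0.05, adjusted p = 5.91e-09). None of the 3 overlapped. Mvd read 45.8 and 51.6 CPM in sgPcyt2 cells against 65.7 and 61.7 CPM with the cDNA (-0.39 ± 0.07, adjusted p = 1.51e-05), Idi1 49.7 and 54.04 CPM in sgPcyt2 cells against 67.7 and 64.4 CPM with the cDNA (-0.35 ± 0.07, adjusted p = 6.55e-05) and Tmem97 76.99 and 74 CPM in sgPcyt2 cells against 95.7 and 94.8 CPM with the cDNA (-0.33 ± 0.05, adjusted p = 6.08e-06). These 3 sterol genes were also lower in both sgPcyt2 libraries. Insig1 differed by -0.28, while Insig2 (-0.00), Srebf1 (0.01), Srebf2 (0.02) and Scap (-0.05) were not called.

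Off doxycycline most calls had the other sign, partly in other genes, since neither acyl-CoA ligase was called on the drug. Off the drug 14 genes were higher in sgPcyt2 cells and 3 lower. That is 44.7% called against 33.1% of all genes tested (16.8% lower and 16.3% higher), with a median of 0.12 against 0.01. Of the 17 calls off the drug, 13 held in every alternative. Acsl3, which activates long-chain fatty acids, read 193 and 171 CPM in sgPcyt2 cells and 79.4 and 87.8 CPM with the cDNA (1.12 ± 0.05, adjusted p = 3.39e-21). Scd1 read 133 and 121 CPM in sgPcyt2 cells against 66.6 and 67.01 CPM with the cDNA (0.93 ± 0.05, adjusted p = 1.18e-18), and Fads2 14.9 and 15.4 CPM in sgPcyt2 cells against 8.82 and 7.21 CPM with the cDNA (0.92 ± 0.12, adjusted p = 4.3e-08). Each was higher in both sgPcyt2 libraries. Insig1 read 29.5 and 27.3 CPM in sgPcyt2 cells against 17.2 and 16.6 CPM with the cDNA (0.75 ± 0.09, adjusted p = 1.67e-09), Fdps 43.9 and 51.4 CPM in sgPcyt2 cells against 29.2 and 29.7 CPM with the cDNA (0.69 ± 0.07, adjusted p = 5.26e-11) and Lss 35.3 and 36.9 CPM in sgPcyt2 cells against 25.5 and 26.2 CPM with the cDNA (0.48 ± 0.08, adjusted p = 1.59e-06). Acsl1, at 9.05 and 8.54 CPM in sgPcyt2 cells against 3.59 and 5.66 CPM with the cDNA, differed by 0.92 ± 0.17, adjusted p = 1.83e-05. The 3 lower genes were those of bulk fatty acid synthesis: Fasn (-0.63 ± 0.04, adjusted p = 1.16e-17), Acaca (-0.42 ± 0.06, adjusted p = 6.11e-07) and Acly (-0.17 ± 0.04, adjusted p = 0.0012). Fasn read 340.4 and 364 CPM in sgPcyt2 cells and 547 and 541 CPM with the cDNA, and Acaca 41.8 and 40.1 CPM in sgPcyt2 cells against 54.4 and 55.02 CPM with the cDNA. Mki67 was lower in sgPcyt2 cells off the drug (-0.71 ± 0.11, adjusted p = 0.000678), and so was Trp53 (-1.13 ± 0.07, adjusted p = 5.93e-19). The 2 lines thus differed in Trp53 RNA as well as in Pcyt2. The part of Mki67 or Trp53 in these differences was not tested.

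The test of the difference between the withdrawals called 21 of the 38, 55.3% against 25.2% of all genes tested (12.4% lower and 12.8% higher), with a median of 0.24 against 0.02. In 20 of them the change was higher in sgPcyt2 cells, mostly as a smaller fall. Scd1 differed most (1.23 ± 0.07, adjusted p = 3.6e-18): it went from 131 and 140.5 to 133 and 121 CPM in sgPcyt2 cells, with overlap, and from 175 and 160.3 to 66.6 and 67.01 CPM with the cDNA. Acsl3 rose in both lines, from 65.4 and 65.4 to 193 and 171 CPM in sgPcyt2 cells and from 67.5 and 66.3 to 79.4 and 87.8 CPM with the cDNA (1.16 ± 0.08, adjusted p = 3.13e-15). Acsl1 (1.15 ± 0.22, adjusted p = 5.03e-05), Fads2 (1.05 ± 0.13, adjusted p = 2.73e-08) and Insig1 (1.03 ± 0.10, adjusted p = 4.45e-11) were the next largest. Scd2 differed by 0.70, Fdps by 0.76 and Lss by 0.73. Fasn (-0.20 to 0.02), Acaca (-0.16 to 0.15) and Insig2 (-0.25 to 0.23), here with the 95% interval, were not called. Of the 21 calls, 11 held in every alternative. Acly, the only gene with a lower value (-0.15 ± 0.06, adjusted p = 0.05, just inside the threshold), lost its call in 9 of 16. Trp53 rose by 1.00 in sgPcyt2 cells and by 2.21 with the cDNA (difference -1.21 ± 0.12, adjusted p = 9.66e-12). The rise of Trp53 RNA was thus itself unequal between the lines, and p53 protein was not measured here. Mki67 differed too, by -0.51 ± 0.13 (adjusted p = 0.018). The part of either in these differences was not tested.

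**Figure D4:**
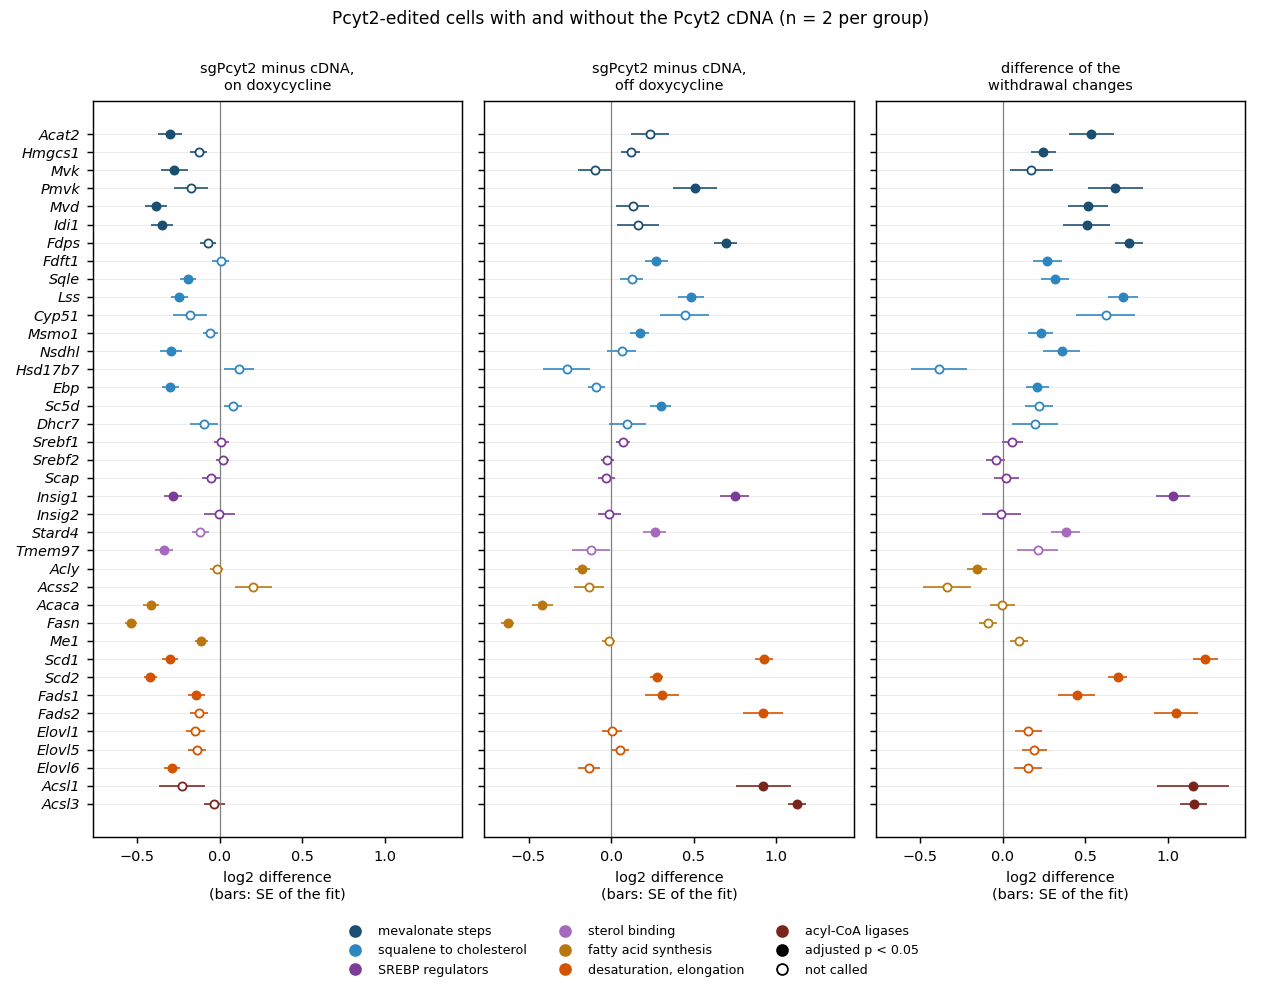
Log2 differences (horizontal axis) of the 38 genes between sgPcyt2 cells and sgPcyt2 cells with the Pcyt2 cDNA on doxycycline, off doxycycline and in the size of the withdrawal change, with bars of 1 SE of edgeR's fit and filled points for an adjusted p under 0.05. Filled points lie left of 0 on the drug and mostly right of 0 off it, while Fasn and Acaca lie left of 0 in both.

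**Figure D5:**
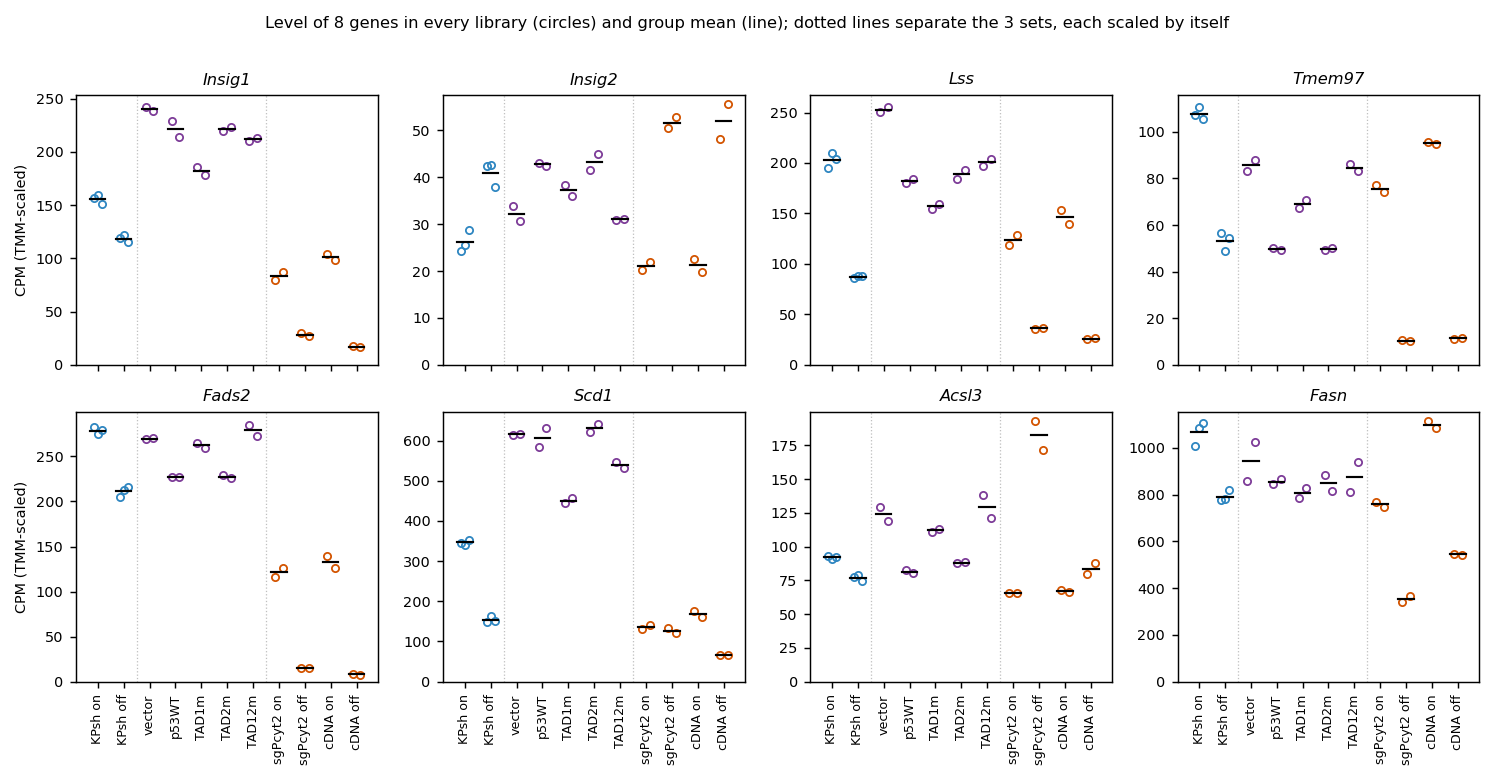
CPM of 8 of the genes (vertical axis, from 0) in each of the 24 libraries (circles) of the 11 groups, with the group mean as a line. The 3 sets were scaled separately. Insig1 is lower and Insig2 higher off doxycycline in all 3 pairs of groups, Fads2 is at most 15.4 CPM off the drug in the Pcyt2 set, and within that set Acsl3 is highest in sgPcyt2 cells off it.

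Other genes of these pathways were read from lists chosen by function, also with earlier results of these data known. Their counts stand beside the shares of all genes tested, of which 33.1% rose and 31.7% fell in KPsh withdrawal, 25.5% and 25.1% with p53WT, 39.2% and 37.1% in sgPcyt2 cells and 37.3% and 36.3% with the cDNA. Of 13 further sterol and isoprenoid enzymes, 12 were tested: 5 fell (41.7%) and 4 rose (33.3%) in KPsh withdrawal, with a median of -0.14. Lbr, a nuclear envelope protein with sterol reductase activity, changed by -0.90 ± 0.06, adjusted p = 1.91e-11 and Pdss1, of ubiquinone side-chain synthesis, by -0.90 ± 0.12, adjusted p = 2.26e-06. With p53WT, 4 fell and 2 rose, Tm7sf2, a second sterol reductase, among the latter (1.22 ± 0.12, adjusted p = 1.87e-07), and with TAD1m against p53WT Tm7sf2 was lower (-1.54 ± 0.12, adjusted p = 3.84e-08). In the Pcyt2 set, 6 fell and 3 rose in sgPcyt2 cells and 8 fell and 3 rose with the cDNA.

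Of 16 genes of SREBP processing and turnover, 15 were tested. In KPsh withdrawal 6 fell (40%) and 4 rose (26.7%), with Erlin1, of the complex that degrades sterol-sensing proteins, at -1.09 ± 0.06, adjusted p = 1.46e-12 and the nuclear SREBP inhibitor Lpin1 at 1.05 ± 0.07, adjusted p = 4.19e-11. Lpin1 rose by 1.64 with p53WT, 0.97 with TAD1m and 1.70 with TAD2m against the shared vector libraries, and by 2.16 and 2.05 in the withdrawals of the Pcyt2 set. It was lower with TAD1m than with p53WT (-0.67 ± 0.07, adjusted p = 5.79e-07).

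Of 16 genes of LXR (the liver X receptors, which sense sterols) and of sterol efflux, storage and trafficking, 14 or 15 were tested. In KPsh withdrawal 10 rose (71.4%) and 3 fell (21.4%), with a median of 0.37, led by Osbpl5 (1.45 ± 0.08, adjusted p = 3.58e-13), Npc2 (1.18 ± 0.06, adjusted p = 4.6e-14) and the sterol esterifier Soat1 (0.98 ± 0.06, adjusted p = 1.07e-12). With p53WT 10 rose (66.7%) and 2 fell (median 0.42), and with TAD1m 7 rose (46.7%, against 19% of all genes) and 0 fell (median 0.22). In the Pcyt2 set 11 rose (78.6%) and 1 fell in each line. Soat1 fell in sgPcyt2 cells (-0.69 ± 0.04, adjusted p = 1.24e-19) and rose with the cDNA (0.33 ± 0.04, adjusted p = 7.48e-10). Other values were those of the LXR gene Nr1h3 at 2.07 ± 0.11, adjusted p = 3.1e-21 and 1.37 ± 0.12, adjusted p = 1.33e-13 and the lysosomal lipase Lipa at 1.90 ± 0.06, adjusted p = 1.06e-29 and 1.47 ± 0.06, adjusted p = 3.05e-26, each for sgPcyt2 cells and then the cDNA. The efflux pump Abca1, named after its values were seen, was at most 6.39 CPM in any library. It read 0.16, 0.312 and 0.301 CPM on and 1.76, 1.2 and 1.01 CPM off in KPsh cells (2.31 ± 0.45, adjusted p = 9.97e-05) and 2.75 and 2.94 CPM with p53WT, with a count of 0 in both vector libraries. Off doxycycline it read 6.39 and 6.14 CPM in sgPcyt2 cells and 0.261 and 0.373 CPM with the cDNA (4.26 ± 0.33, adjusted p = 1.28e-14). Other genes of the list did not all follow Abca1. Apoe read 3.83, 4.69 and 3.24 CPM on and 1.17, 1.93 and 2.03 CPM off in KPsh cells. With the cDNA it read 4.04 and 3.48 CPM on and 1.31 and 0.746 CPM off. Abcg1 rose from 0.051 and 0.263 CPM with vector to 3.31 and 3.89 CPM with p53WT, but read 0 in the Pcyt2 set.

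Of 25 other genes of fatty acid synthesis, elongation and activation, 16 or 17 were tested: 5 rose (31.2%) and 6 fell (37.5%) in KPsh withdrawal (median -0.08), and 4 rose and 3 fell with p53WT. Fads3 rose in both (1.33 ± 0.06, adjusted p = 2.72e-14 and 0.67 ± 0.06, adjusted p = 6.27e-08), whereas Fads1 and Fads2 fell. Of 22 genes of fatty acid oxidation, 21 were tested. In KPsh withdrawal 9 rose (42.9%) and 5 fell (23.8%), and with p53WT 10 rose (47.6%) and 1 fell (4.76%). The KPsh shares were near those of all genes. In the Pcyt2 set 20 rose (95.2%) and 1 fell in sgPcyt2 cells (median 0.85), and 16 rose (76.2%) and 1 fell with the cDNA (median 0.47). Cpt1a, the carnitine transferase of fatty acid entry into mitochondria, changed by -0.69 ± 0.06, adjusted p = 5.21e-10 in KPsh withdrawal, by 0.71 ± 0.05, adjusted p = 2.93e-08 with TAD1m and by 1.74 ± 0.04, adjusted p = 1.53e-34 in sgPcyt2 cells. Malonyl-CoA decarboxylase Mlycd rose by 1.33 in KPsh withdrawal, 1.18 with p53WT, 1.51 in sgPcyt2 cells and 1.19 with the cDNA.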

How the data were processed

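Poly(A) RNA of 24 libraries was sequenced after stranded library preparation, per the labels' protocols. The deposited values are the authors' expected counts per gene, one transcript a gene, over GENCODE vM25 exons on mm10, read from both strands and so without strand, per the file headers. STAR 2.6.1c and HOMER are named in the submitters' processing notes. Per library, 17.6 to 19.9% of genes had a fractional count. Counts were rounded, which moved no library total by more than 0.0533%.

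Each of the 3 tables was filtered (filterByExpr), scaled by TMM (factors 0.979 to 1.02) and fitted with 1 term per group in edgeR 4.0.16 (glmQLFit, robust, and the quasi-likelihood F test) under R 4.3.3 with limma 3.58.1. The Benjamini-Hochberg adjustment took in every gene tested in a table, and the threshold was 0.05. SE is the absolute log2 change over the square root of F. Alternatives were DESeq2 1.42.0, other scalings and filters, a replicate block, a fit without robust estimation, a fit of only the groups compared and leaving out each library. Sequences and overlaps came from RefSeq (GRCm38.p6) and GENCODE vM21, read with Python 3.11.15 and pandas 2.3.3, and figures were drawn with matplotlib 3.10.9.

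The columns of the KPsh libraries and of the Pcyt2 cDNA libraries were matched to samples by elimination from their names. The growth protocol gives doxycycline to all KPnull groups, while the series text allows for either.

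The members and lists were chosen with earlier results of these data known. All 38 members were named. Values per library were given for the regulators and for up to 6 called members with the largest absolute change and a mean of at least 5 CPM in a comparison. From each other list, genes were drawn from up to 3 chosen in the same way, or else the 2 with the highest mean.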

Additional observations from a re-analysis of the deposited data

Results flagged for a closer look

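In the Pcyt2 set, 21 of the 38 genes changed differently on doxycycline withdrawal in sgPcyt2 cells and in cells with the cDNA, by the interaction test of edgeR's quasi-likelihood fit (adjusted p of at most 0.05 after Benjamini-Hochberg adjustment over all genes). Values are the log2 change in sgPcyt2 cells minus that with the cDNA. In the mevalonate steps they were 0.76 for Fdps, 0.68 for Pmvk, 0.54 for Acat2, 0.52 for Mvd, 0.51 for Idi1 and 0.25 for Hmgcs1. From squalene to cholesterol they were 0.73 for Lss, 0.36 for Nsdhl, 0.32 for Sqle, 0.27 for Fdft1, 0.23 for Msmo1 and 0.21 for Ebp. Insig1 differed by 1.03 and Stard4 by 0.38. Among the fatty acid genes the values were 1.23 for Scd1, 1.16 for Acsl3, 1.15 for Acsl1, 1.05 for Fads2, 0.70 for Scd2, 0.45 for Fads1 and -0.15 for Acly. The calls of Acat2, Acly, Ebp, Fdft1, Hmgcs1, Idi1, Msmo1, Nsdhl, Sqle and Stard4 were lost in at least 1 alternative. Trp53 also rose by less in sgPcyt2 cells, and its part in these differences was not tested.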

How the results depend on the processing

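No called member turned direction under any alternative tried. Against vector, 25 of 29 calls with TAD1m and 18 of 24 with TAD2m held in every alternative. So did 18 of 24 for TAD1m against p53WT and 22 of 28 for TAD1m against TAD12m. The number called was 34 in KPsh withdrawal under every alternative, 34 to 35 in sgPcyt2 cells, 35 to 37 with the cDNA, 19 to 30 for p53WT, 26 to 33 for TAD1m, 19 to 28 for TAD2m and 14 to 24 for the difference of the withdrawals. TAD12m against vector was the count that moved by over 1.5 times: from 4 to 2 with upper-quartile factors, 2 without a filter, 2 with a replicate block, 0 when only the groups compared were fitted, and between 1 and 2 when a library was left out. The causes were not tested. With 1 library left in a group, that library is assumed to vary like the other groups. Same-numbered libraries did not deviate together throughout: the correlations ran from -0.238 to -0.186 (KPsh) and from -0.127 to -0.00959 (Pcyt2). In KPnull cells they were 0.667 for vector and TAD12m, 0.233 for vector and TAD1m, 0.213 for TAD1m and TAD12m and 0.206 for p53WT and TAD2m, but -0.366 for vector and p53WT and -0.486 for p53WT and TAD12m. The labels name no shared batch, so the numbers were not used as pairs. A block with crossed numbers, chosen after seeing the data, gave 10 calls for TAD12m. Upper-quartile factors moved the median of the 38 by up to 0.113. Groups of 2 libraries limit the precision, and counts were read without strand.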
